A study of Mus musculus with 6 samples.

Results

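A set of 432 of the 45281 probes on the array rose at least 2-fold after DNA transfection in cells that lack both Sting and Trex1. The cells are labelled as MEFs, that is, primary fibroblasts of mouse embryos, here from midgestation embryos of C57BL6/129Sv background. They were wild type (WT), lacked Trex1 (TKO), or lacked both Trex1 and Sting (STKO). Cells of each genotype were mock-treated or transfected for 6 h with 4 µg/ml of ISD, the interferon stimulatory DNA, which is made as a synthetic duplex. Each of the 6 groups was measured on 1 array, and loss of Sting was read only on the Trex1-deficient background. Every value below is therefore that of a single array or of a pair of arrays, with no replicate, no error and no test.

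Members were chosen from the deposited intensities, from which the median of all probes on the array (76.8 to 85.3) was subtracted. Results under 16 were set to 16 and log2 was taken. A member had a detection fraction above 0.99 on the STKO ISD array, a value between 0 and 1 in the deposited table that rises with signal, and a STKO ISD minus STKO mock difference of at least 1 on the log2 scale. The log2 difference of a probe whose mock array did not detect it rests on the floor or on an undetected value and is no measured size. Of the 15870 probes detected on STKO ISD, 2.72% met this rule. Because the rule used both STKO arrays, the STKO values are a description and support nothing. A total of 379 members carry the name of 1 gene, 356 genes in all, and the other 53 have no gene name in the annotation used here. Among those just inside the threshold were Pipox and Fbxo32, both at 1.00, and just outside it lay Map6, Hspa1a and Sox11, also at 1.00 after rounding. The lowest detection fraction inside was 0.994, and no probe with a difference of 1 or more failed the detection criterion.

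STING is the adaptor that relays the detection of DNA in the cytosol by cGAS to the kinase TBK1 and the transcription factors IRF3 and NF-kappaB, which switch on the interferon beta gene and inflammatory genes. Secreted interferon then induces the interferon-stimulated genes through its receptor. TREX1 is the exonuclease that clears DNA from the cytosol, and cells without it are known to raise interferon-stimulated genes through STING without added DNA. The question put to the member probes is how they behaved where STING was present, in WT and in TKO, and whether they are the probes that answered DNA most strongly there.

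Groups follow the sample titles. A genotype field in the labels contradicts the titles on Sting for 5 of the 6 arrays, and the probes of both deleted genes side with the titles. One Trex1 probe read 691 on WT mock and 4558 on WT ISD, 330 and 468 on the TKO arrays, and 156 and 159 on the STKO arrays. The Sting1 probe read 225 and 501 in WT, 196 and 272 in TKO, and 118 and 114 in STKO. Whether these probes lie inside the deleted parts of the genes is not known, and both genes still gave a detected signal on the STKO arrays. Detected probes numbered 14488 to 16177 per array.

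The cell type label was checked against marker lists. The fibroblast list had 9 or 10 of its 10 genes detected on each array, with a summed intensity above the median of 19654 to 28530. Its brightest probe, of Vim, read 8681 to 13053, Col1a1 read 1270 to 4112 and Pdgfrb 126 to 333. The macrophage list had all 7 of its genes on the array detected on all 6 arrays, with a summed intensity of 88618 to 112983. By the brightest probe of each gene, Lyz2 read 34259 to 39308, Adgre1 (F4/80) 10490 to 15407 and Csf1r 6407 to 11099. Tyrobp read 5393 to 8857 and Cd14 3044 to 13132. The rest of the list was dimmer, Itgam at 142 to 217 and the brightest Ptprc probe at 321 to 628. Macrophage genes, which the label gives no reason for, were thus detected on every array, most of them brightly. The summed intensity of their list was above that of the fibroblast list on each array. In such bulk samples a change in the number of cells of a type and a change in RNA per cell cannot be told apart. The STKO pair, from which the members come, read 25231 on mock and 28530 on ISD for the fibroblast list and 108314 and 112983 for the macrophage list. Col3a1, a collagen gene, was the only member among the markers, at 961 on STKO mock and 1842 on STKO ISD. The part of these cells in the results was not tested. Endothelial, epithelial, muscle, neural and erythroid lists had at most 2 genes detected on any array.

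Most members were dim. On STKO ISD 242 of the 432 lay 32 to 64 above the array median, 88 lay 64 to 128 above it, 38 lay 128 to 256 above it, and 64 were 256 or more above it. Members made up 242 of the 2053 detected probes in the lowest of these ranges and 64 of the 8682 (0.737%) in the highest. Of the 15531 probes detected on STKO mock, 132 (0.85%) were at least 2-fold lower with ISD, and by the same ranges of level on STKO mock they numbered 113, 16, 2 and 1. These counts come from the arrays that chose the members and are a description only. On STKO mock 145 members sat at the floor and 176 (40.7%) were detected. The members' median difference in STKO was 1.19, with a range of 1.00 to 4.23, and the median over all 15870 detected probes was 0.12 with quartiles of -0.04 and 0.32.

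In WT, 96 of the 432 members (22.2%) were at least 2-fold higher with ISD, where 5.72% of all probes detected on STKO ISD were. A further 59 members (13.7%) were at least 2-fold lower, against 13.2% of all, and 277 lay between. In TKO, 59 members (13.7%) were at least 2-fold higher, against 2.24% of all, and 32 (7.41%) were at least 2-fold lower, against 8.12%. The share of members that rose was thus above the background in both genotypes, while the share that fell was close to it. Members higher in both WT and TKO numbered 50 (1.71% of all detected probes were), and 12 (2.78%, against 5.15% of all) were lower in both. Over all members the median difference was -0.09 in WT and 0.00 in TKO, where the medians of all detected probes were -0.29 and -0.32. The WT median depended on the scaling, turning to 3.07 without background subtraction, 1.33 with neqc, 0.115 after quantile normalization and 3.02 with the authors' value table, and the TKO median reached 0.813 to 0.97 in 3 of these.

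Signal level divided the members. Among the 64 members at 256 or above, 39 rose in WT, where 4.47% of all probes at that level did, and 23 rose in TKO, against 1.36%. Of these bright members 5 (7.81%) fell in WT, against 7.87% of all probes at that level, and 4 (6.25%) in TKO, against 4.62%. In the range of 32 to 64, 29 of the 242 members rose in WT, against 8.38% of all probes there, and 7.44% rose in TKO, against 4.09%. From 64 to 128, 23.9% of the members rose in WT, against 6.34%, and from 128 to 256 18.4% did, against 6.32%. The members' share of WT-up probes was thus above that of all probes in every range, least so among the dimmest. A stricter view leaves the background in place, so that a probe must double in total intensity: 38 members did, 34 of them named and belonging to 26 genes, and 1 probe fell as far. Of these 38, 31 rose in WT and 18 in TKO on the background-subtracted scale, and 36 were detected on STKO mock.

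Among the interferon genes Ifnb1 was the one member. It encodes interferon beta, the first interferon made after DNA sensing. Its intensity was 82.2 on WT mock and 25155 on WT ISD, 2388 on TKO mock and 23581 on TKO ISD, and 80.2 on STKO mock and 222 on STKO ISD. The STKO ISD value was the lowest of the 3 ISD arrays, with a signal above the array median at 0.55% of that on WT ISD, but stood above both STKO mock and WT mock. Since neither of those mock arrays detected the probe, its rise was at least 5.15-fold in STKO and at least 1166-fold in WT, the first place by WT difference on the floored scale. In TKO the rise was 10.2-fold. Of the 16 probes of type I and III interferon genes, that of Ifnb1 alone was detected on STKO ISD. The alpha interferon probes, members of the same cytokine family, were not detected there even where WT responded strongly: one Ifna11 probe read 64.3 on WT mock and 4010 on WT ISD, 75.2 and 905 in TKO, and 71.0 and 72.3 in STKO, and an Ifna5 probe read 57.2 and 3918, 74.3 and 768, and 63.7 and 66.2. Probes of such near-identical family members can share signal, so the alpha genes cannot be told apart with certainty.

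Cxcl10, a chemokine gene induced by interferon and by NF-kappaB, had the largest STKO differences, at 4.23 and 3.66 on its 2 probes. The brighter probe read 496 and 43153 on WT mock and ISD, 24690 and 39651 in TKO, and 168 and 1149 in STKO. That is 12.6-fold in STKO and 103-fold in WT, while the TKO difference was 0.69 from a mock level already far above that of WT. The other probe went from 112 to 604 in STKO, from 309 to 12091 in WT and from 5848 to 9829 in TKO, the same order of genotypes.

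Of the effector proteins that interferon induces, 47 probes of the list used here were detected on STKO ISD, and 14 of them (29.8%) were members. All 14 rose in WT and 6 in TKO, where 45 and 12 of all 47 did, and none of the 47 fell 2-fold in STKO. The median over the 47 was 0.60 in STKO, 3.29 in WT and 0.86 in TKO. Rsad2, which encodes the antiviral enzyme viperin, read 987 and 38861 in WT, 38542 and 33798 in TKO, and 330 and 1425 in STKO. TKO was thus as high without ISD as WT was with it, and STKO was low on mock and moved 5.44-fold. The highest intensity of any probe was 48100 on WT ISD, 46140 on TKO mock and 43305 on TKO ISD. Whether readings near these, also for Cxcl10 above and Ifit3 below, are limited by the scale was not tested. Mx2, a dynamin-like antiviral GTPase, read 158 and 4935 in WT, 3384 and 6062 in TKO, and 77.4 and 211 in STKO, a rise of at least 4.72-fold there. Both Ifit3 probes were members: the brighter, of a protein that binds viral RNA with its family members, read 2269 and 44026 in WT, 33775 and 39506 in TKO, and 407 and 1361 in STKO. For these 3 genes WT mock was the lowest of the WT and TKO arrays, and the order of the other 3 differed between the genes.

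Smaller STKO differences of the same list belonged to Cmpk2, a nucleotide kinase (2.00 in STKO, 5.95 in WT, 0.90 in TKO), to both Ifit2 probes (1.57 and 1.01 in STKO, 6.08 and 5.19 in WT), to both Usp18 probes (1.44 and 1.23 in STKO, 5.77 and 4.50 in WT) and to Isg15 (1.12 in STKO, 4.60 in WT). USP18 removes the ubiquitin-like ISG15 from proteins and damps interferon signalling. Gbp3, a guanylate-binding protein, differed by 1.03 in STKO and 4.83 in WT. Ifi204, Ifi205 and Ifih1, 2 of them from a family of closely similar genes and all linked to nucleic acid sensing, were members from a mock array that did not detect them, at 1.93, 1.15 and 1.05 in STKO. Among interferon signalling genes 7 of 22 detected probes were members, all 7 higher in WT and 3 in TKO, where 14 and 5 of the 22 were. Irf1, a transcription factor of interferon and NF-kappaB responses, accounted for 5 of the 7 members, with STKO differences of 1.12 to 1.65 and WT differences of 3.09 to 5.66. Its brightest probe read 3118 and 26053 in WT, 16045 and 26594 in TKO, and 2489 and 5324 in STKO, so the STKO mock array lay near WT mock and its ISD array between the WT arrays. Irf7, which amplifies alpha interferon transcription, differed by 1.45 in STKO, 3.87 in WT and 0.54 in TKO. Tyk2, a receptor-associated kinase, entered through a dim probe that was not detected on STKO mock, with a STKO difference of 1.22. The bright Tyk2 probe read 951 and 1442 in WT and 827 on both STKO arrays, and a dimmer one, detected on all 6 arrays, differed by 0.43 in STKO.

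Cd69, an early activation antigen of leukocytes, stood outside the lists with a STKO difference of 2.93. It read 250 and 33362 in WT, 6139 and 28307 in TKO, and 116 and 331 in STKO, and its STKO ISD array reached 0.74% of WT ISD. An unnamed probe, ILMN_1246194, read 431 and 15582 in WT, 6654 and 13518 in TKO, and 124 and 275 in STKO. On STKO ISD Cd69 lay above its WT mock value and the unnamed probe below its own.

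The promoters of 5 member genes are shown because they span the responses described here, from a large WT response to a response that was larger in STKO. They are the 250 bases before the RefSeq start of each gene in GRCm38.p6, on the gene's strand. Capitals mark matches, on either strand, to an interferon-stimulated response element (GAAA, any 2 bases, GAAA) or to a kappaB site (GGG, any 3 bases, TTCC), and in Cxcl2 the first capital run holds an overlapping pair of kappaB matches. The regions are Ifnb1 at chr4:88522795-88523044 (minus strand), Cxcl10 at chr5:92348890-92349139 (minus strand), Rsad2 at chr12:26456453-26456702 (minus strand), Cxcl2 at chr5:90903649-90903898 (plus strand) and Nfkbia at chr12:55492648-55492897 (minus strand).
Ifnb1: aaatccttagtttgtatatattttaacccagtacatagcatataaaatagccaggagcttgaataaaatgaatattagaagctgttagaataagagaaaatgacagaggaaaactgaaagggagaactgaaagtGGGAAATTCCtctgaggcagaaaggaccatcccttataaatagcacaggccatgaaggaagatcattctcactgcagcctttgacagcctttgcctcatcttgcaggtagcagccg
Cxcl10: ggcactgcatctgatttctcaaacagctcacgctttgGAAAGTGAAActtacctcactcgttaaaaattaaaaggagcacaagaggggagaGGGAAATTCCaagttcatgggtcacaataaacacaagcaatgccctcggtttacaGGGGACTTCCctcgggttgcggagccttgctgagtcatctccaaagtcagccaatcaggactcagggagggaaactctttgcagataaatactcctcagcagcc
Rsad2: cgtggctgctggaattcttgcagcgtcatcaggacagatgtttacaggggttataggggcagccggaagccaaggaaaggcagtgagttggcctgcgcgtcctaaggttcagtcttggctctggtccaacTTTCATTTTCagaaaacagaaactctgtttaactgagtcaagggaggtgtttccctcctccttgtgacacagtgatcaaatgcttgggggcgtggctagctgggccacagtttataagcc
Cxcl2: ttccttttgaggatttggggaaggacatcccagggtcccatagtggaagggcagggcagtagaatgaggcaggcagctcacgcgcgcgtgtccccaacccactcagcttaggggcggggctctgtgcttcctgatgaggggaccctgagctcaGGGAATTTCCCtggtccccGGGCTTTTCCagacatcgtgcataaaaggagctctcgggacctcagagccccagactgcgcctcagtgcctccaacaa
Nfkbia: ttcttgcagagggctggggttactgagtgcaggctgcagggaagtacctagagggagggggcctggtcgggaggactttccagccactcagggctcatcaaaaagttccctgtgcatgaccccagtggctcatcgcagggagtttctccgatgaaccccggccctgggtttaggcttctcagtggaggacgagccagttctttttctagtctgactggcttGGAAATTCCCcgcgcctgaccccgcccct
The response element lies 213 to 204 bases before the start in Cxcl10 and 120 to 111 bases before it, on the opposite strand, in Rsad2. The kappaB matches lie 116 to 107 bases before the start in Ifnb1, 159 to 150 and 104 to 95 in Cxcl10, 97 to 87 and 78 to 69 in Cxcl2, and 29 to 20 in Nfkbia.

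Over all 27025 genes with a promoter in the RefSeq table, 3.46% hold the response element, 5.31% the kappaB letters and 7.82% the AP-1 letters TGANTCA in this window. Of the 61 promoters found for the 75 genes of WT-up members, 16.4%, 19.7% and 13.1% hold them. Of the 235 promoters found for the 283 genes of the other members, 3.83%, 5.53% and 5.96% do, close to the share of all genes. For the 20 promoters of the 26 genes whose total intensity doubled in STKO the counts were 3, 8 and 5 (15%, 40% and 25%). Genes that rose 2-fold in WT and were detected on STKO ISD without being members (446 promoters) held them in 9.19%, 6.73% and 9.19%. These are letter matches, given with no test, and no binding was measured.

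Chemokine genes, whose products draw leukocytes, supplied 8 members among 14 detected probes. Of the 8 members 6 rose in WT and 3 in TKO, where 12 and 8 of the 14 probes did. Cxcl2, a neutrophil attractant with the kappaB matches printed above, was the exception to the order seen so far. Its brighter probe read 1164 and 1924 in WT, 1379 and 2149 in TKO, and 587 and 2943 in STKO. STKO was lowest on mock and highest with ISD, at 155% of WT ISD, and the rise was 5.69-fold in STKO with differences of 0.76 in WT and 0.68 in TKO. The other Cxcl2 probe showed the same order, at 347 and 507 in WT, 510 and 834 in TKO, and 231 and 1116 in STKO. Cxcl1, of the same receptor family, read 650 and 1484 in WT, 751 and 1300 in TKO, and 861 and 1863 in STKO, similar folds of 2.44, 1.83 and 2.29.

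The monocyte attractants Ccl2 and Ccl7 were high on all arrays. Ccl2 read 1009 and 12384 in WT, 2229 and 6899 in TKO, and 1917 and 3839 in STKO. Ccl7 read 2344 and 18030 in WT, 4881 and 12859 in TKO, and 3430 and 7238 in STKO. For both, STKO mock was above WT mock and STKO ISD was 30.5% and 39.9% of WT ISD. Ccl12, a related attractant outside the list, had the second largest WT difference of the members at 7.61, against 1.29 in STKO and 1.86 in TKO. Ccl4 differed by 1.06 in STKO and 4.33 in WT. Ccl5, a chemokine gene strongly induced in WT (720 and 27180), read 727 and 711 in STKO and was no member.

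Cytokine genes gave 4 members among 12 detected probes, all 4 higher in WT and in TKO, where 11 and 10 of the 12 were. Tnf, the NF-kappaB activating cytokine, read 686 and 5831 in WT, 2787 and 8808 in TKO, and 561 and 1149 in STKO on one probe, and its other probe differed by 1.04 in STKO and 2.84 in WT. Il6 read 107 and 1941 in WT, 258 and 1370 in TKO, and 127 and 180.0 in STKO. Il1b read 201 and 1203 in WT, 103 and 177 in TKO, and 120 and 170 in STKO. In each case the STKO ISD array lay far below the WT ISD array, from 5.10% of it for Il6 to 26.7% for the second Tnf probe.

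NF-kappaB targets and inhibitors had STKO responses nearer in size to those of WT. Of 20 detected probes 7 were members, 6 of them higher in WT and 4 in TKO, where 14 and 7 of the 20 were. The median over the 20 was 0.89 in STKO, 1.33 in WT and 0.58 in TKO. Icam1, an adhesion molecule, read 1210 and 5455 in WT, 1251 and 3571 in TKO, and 754 and 2216 in STKO, rises of 4.74-fold, 2.99-fold and 3.18-fold. Tnfaip3, the ubiquitin-editing inhibitor A20, differed by 1.29 in STKO, 2.93 in WT and 1.31 in TKO. Nfkbia, which encodes the inhibitor IkappaB alpha and has the kappaB match nearest to its start among the promoters printed, read 1978 and 4581 in WT, 3123 and 3813 in TKO, and 1296 and 2560 in STKO on its brighter probe. Nfkbie, the epsilon inhibitor, differed by 1.36 in STKO, 1.61 in WT and 1.08 in TKO on the probe detected throughout, and Birc3, an inhibitor of apoptosis, by 1.30 in STKO and 0.79 in TKO, with a 2.83-fold rise in WT.

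Other inflammatory genes differed in how their STKO and WT responses compared. Tlr2, a receptor for bacterial lipoproteins, read 6224 and 13690 in WT, 5266 and 10868 in TKO, and 2801 and 6632 in STKO, with differences of 1.15, 1.06 and 1.27. Both probes of Gpr84, a receptor for medium-chain fatty acids, differed by 1.28 and 1.26 in STKO and by 1.79 and 1.89 in WT. Ccrl2, a chemerin-binding receptor, differed by 1.75 in STKO against 4.99 in WT and 2.05 in TKO. Acod1, which makes itaconate in macrophages, differed by 1.24 and 1.31 on its 2 probes in STKO and by 7.33 and 5.81 in WT. The immediate early list gave 3 members of 19 detected probes, Klf4 (1.35 in STKO, 1.13 in WT, 1.04 in TKO), Dusp5 (1.09, 1.64 and 0.20) and Fosb (2.08, 0.06 and -0.49, not detected on STKO mock). No probe of the antigen presentation list (29 detected) or of the DNA and RNA sensing list (17 detected) was a member, although 16 and 11 of these probes rose 2-fold in WT. The members Ifih1, Ifi204 and Ifi205, also linked to nucleic acid sensing, were counted in the effector list instead.

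Targets of p53, the DNA damage response factor, had 28 detected probes, of which 9 were members, of 5 genes. Of the 9 members 4 were higher in WT and 7 in TKO, where 8 and 11 of the 28 were. The medians over the 28 were 0.84 in STKO, 0.24 in WT and 0.55 in TKO. Mdm2, the ubiquitin ligase that restrains p53, read 2994 and 3722 in WT, 4166 and 6380 in TKO, and 2842 and 7294 in STKO on its bright probe. The 3 mock arrays lay within 2-fold of each other and STKO ISD was the highest of all, at 198% of WT ISD, a rise of 2.61-fold. A Mdm2 probe that was no member read 4240 and 7714 in STKO, with differences of 0.88 in STKO, -0.31 in WT and 0.40 in TKO. Cdkn1a, the cell cycle inhibitor p21, read 772 and 2442 in WT, 1108 and 2649 in TKO, and 694 and 1414 in STKO, and its other member probe gave differences of 1.67, 1.05 and 1.06. A brighter Cdkn1a probe, at 5329 and 10354 in STKO, fell just short of membership with differences of 1.75 in WT, 1.07 in TKO and 0.97 in STKO. The death receptor gene Fas differed by 1.23 and 1.01 in STKO, by 2.37 and 2.48 in WT and by 2.24 and 2.18 in TKO. Trp53inp1, a p53-induced nuclear protein, was lower with ISD in WT without reaching 2-fold: it read 408 and 263 there, 257 and 489 in TKO, and 239 and 537 in STKO. Sesn2, a stress-inducible regulator of growth signalling, read 175 and 149 in WT, 112 and 217 in TKO, and 157 and 262 in STKO. Both genes were among the 9 members that rose 2-fold in TKO and not in WT.

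Stress response genes, including targets of ATF4 in the response to amino acid shortage and misfolded protein, gave 5 members of 23 detected probes. Of the 5 members 1 rose in WT and 1 in TKO, where 1 and 1 of all 23 did, and 2 fell in WT. The medians over the 23 were 0.70 in STKO, -0.37 in WT and -0.18 in TKO. Chac1, which degrades glutathione, read 1552 and 643 in WT, 729 and 750.3 in TKO, and 746 and 1576 in STKO, so the STKO ISD array only reached the WT mock level. Trib3, a pseudokinase that binds AKT and ATF4, read 444 and 256 in WT, 340 and 279 in TKO, and 303 and 567 in STKO. Ddit3, the transcription factor CHOP, read 661 and 468 in WT, 653 and 624 in TKO, and 583 and 1145 in STKO. Mt2, a metal-binding metallothionein, read 97.0 and 171 in WT, 99.4 and 147 in TKO, and 90.9 and 150.3 in STKO. It was not detected on any of the 3 mock arrays, and the rises were at least 4.00-fold, 2.85-fold and 2.44-fold.

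Members with a lower signal in WT or TKO numbered 79. The 59 that were 2-fold lower in WT were mostly dim, as the members in general were. On STKO ISD 54 of the 59 lay under 256 above the median, as did all but 64 of the 432 members. On WT ISD 16 of the 59 were still detected. The 5 brighter ones were Chac1, a Trib3 probe, Flrt3, Jag1 and the unnamed probe ILMN_2735350. Among the 12 members lower in both WT and TKO, Flrt3, an adhesion protein of the fibronectin leucine-rich family, read 306 and 183 in WT, 271 and 147 in TKO, and 232 and 435 in STKO. Jag1, a Notch ligand, read 243 and 149 in WT, 183 and 98.8 in TKO, and 196 and 346 in STKO. For both, the mock levels of the 3 genotypes lay within 2-fold of each other above the median, and STKO ISD was the highest array. Prpf39, a splicing factor, had a STKO difference of 2.25 from a mock array that did not detect it, against -1.52 in WT and -1.37 in TKO. For 7 of the others, Traf4, Nfic, Cpeb2, Rapgef5, Ankrd10, Srf and Hoxd9, the STKO differences were 1.00 to 1.31, and that of the remaining named one was 1.87.

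Some members were among the strongest wild-type responders, and how large that part is depended on how background was treated. WT-up probes were 22.2% of the members here, 81.6% where no background was subtracted and 54.5% with the neqc correction. Each setting chose its own members, and the share over all probes detected on STKO ISD was taken only here, at 5.72%. The 14488 probes detected on WT ISD were ranked by their WT difference. Members held 2 of the top 10 places, 19 of the top 50, 29 of the top 100 (29%), 39 of the top 200 (19.5%) and 61 of the top 500 (12.2%), where 1.59% of the 14488 are members. Read from the side of the members, the 29 are 6.71% of the 432. Of the top 100 probes 44 were not detected on STKO ISD, and 38 sat at the floor on both STKO arrays. The 10 probes with the largest floored WT difference were those of Ifnb1, Cxcl9, Gbp5, Ifit1bl1, Ifna11, Ifna5, Oasl1, Batf2, Serpina3f and Ccl12, of which Ifnb1 and Ccl12 are members. Of these, Cxcl9 and Ccl12 alone were detected on WT mock, so the differences of the other 8 are set by the floor and their order is not known. Cxcl9, an interferon-induced chemokine, read 137 and 33049 in WT and 98.6 and 108 in STKO. A place near the top of the WT order thus did not by itself make a probe a member. The rank of the 231 members detected on WT ISD ran from 1 to 14478 with a median of 2231, 165 of them above the midpoint of the order and 66 below it, and 201 members were not detected on WT ISD.

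The WT-up members were also read by the size of their WT response. Of the 96, 33 rose 2-fold to 4-fold in WT, 29 rose 4-fold to 16-fold and 34 rose 16-fold or more, with median STKO differences of 1.20, 1.21 and 1.39. The rule admits only STKO differences of 1 or more, so these medians show nothing of how the responses are related. In the last of these groups STKO ISD reached 0.55% to 14.8% of the WT ISD signal above the array median, which follows from the split by WT size and from STKO differences near 1. Of the 96 WT-up members, 84 had a smaller difference in STKO than in WT and 34 a smaller one than in TKO. Both counts depend on the STKO values that the rule used, and the shares over all WT-up probes were not counted, so they are a description only. The 12 with a STKO difference as large as in WT included Klf4, Tlr2 and Cd83. Cd83, a surface marker of activated antigen-presenting cells, read 676 and 1325 in WT, 643 and 812 in TKO, and 459 and 863 in STKO. Over all detected probes the median difference was 0.12 in STKO and -0.29 in WT, a shift that the scale leaves in place. For Klf4, Tlr2 and Cd83 the gap between STKO and WT was smaller than that between these medians, so their order rests on the scaling. The 10 largest TKO differences among members belonged to Cish (3.74), a cytokine signalling inhibitor, Ifnb1 (3.35), Plscr2 (3.20), Il6 (2.88), both Acod1 probes (2.87 and 2.33), Gpr18 (2.33), Il1b (2.30), Minpp1 (2.27) and Sesn2 (2.27), of which Plscr2, Gpr18 and Il1b were not detected on TKO mock. All but Sesn2 also rose 2-fold in WT.

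In WT-up members the TKO mock level stood further above WT mock than in the other members, whose median difference was -0.23. The WT response and this difference share the WT mock array, where a low reading raises both, so the split in part sets this order. In TKO mock against WT mock 65 of the 432 members were at least 2-fold higher, where 4.95% of all detected probes were, and 58 (13.4%) were at least 2-fold lower, against 8.46%. Of the 65, 51 were among the 96 WT-up members, and the share among all WT-up probes was not counted. The median TKO mock minus WT mock difference was 1.22 for the WT-up members and 3.87 for the 34 that rose 16-fold or more in WT. Strong WT responders outside the members had this too. On the floored scale the difference was 6.93 for Oasl1, 6.10 for Gbp5, 5.63 for Batf2, 5.12 for Ifit1bl1, 4.67 for Cxcl9 and 3.28 for Serpina3f. These are non-members in the WT top 10, whose Ifna11 and Ifna5 probes were undetected on both mock arrays. For Ifnb1, a member, the TKO mock level was at least 107-fold that of WT mock. Over all members the median was -0.06, which also turned with the scaling, to 1.72 without subtraction, 0.332 with neqc and 2.29 with the value table.

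STKO mock was low for many members, which the rule favours, since a low STKO mock value helps a probe to pass. Against WT mock 133 members (30.8%) were at least 2-fold lower and 3 higher, where 3.09% and 2.77% of all detected probes were. Against TKO mock 118 (27.3%) were at least 2-fold lower, with 4.05% as the background, and 7 were higher, with 6.6%. The medians were -0.67 and -0.40. Set against WT mock instead of their own mock, the STKO ISD levels of all members were higher by a median of 0.64, and those of the 34 largest WT responders by 0.35. For Rsad2, Mx2 and the Ifit3 probes part of the STKO rise thus lay below the level of untreated WT cells: the brighter Ifit3 probe read 1361 on STKO ISD and 2269 on WT mock.

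Other probes of the same genes were read on the same STKO arrays and by the same rule, so their counts are a description only. Of the 356 member genes 183 had at least 2 probes detected on STKO ISD, and in 20 of these (10.9%) a second probe was a member too. For genes of WT-up members the count was 14 of 31 (45.2%), for genes of the other members 8 of 154 (5.19%), and for genes whose total intensity doubled 12 of 14 (85.7%). The 284 other detected probes of member genes that were not members had a median STKO difference of 0.17, and 215 of them were above 0. The median of all detected probes was 0.12, so most of those were above 0 as well. Probes of a gene share their RNA sample and can read different transcripts, so they are not replicates.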

How the data were processed

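Per the labels' protocols, RNA was purified on RNeasy columns and labelled as biotinylated cRNA (Ambion MessageAmp) for Illumina arrays. The authors deposited an intensity for each of 45281 probes per array, without background subtraction as far as the lowest values (44.8 to 51.3) show, with scanner and software not given in the sources used here. Beside each intensity the deposited table has a column headed as a detection p-value, which rises with signal (Spearman's rho 0.984 to 0.988 across probes), so 1 minus it was read as the p and a probe counted as detected at a fraction above 0.99. The authors' series value table proved to hold log2 intensities centred on each probe's median without background subtraction (column medians -0.01 to 0), and served as an alternative; its scale was inferred by comparing differences between arrays.

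The median-subtracted intensity was floored at 16 and log2 was taken (Python 3.11.15, pandas 2.3.3, numpy 2.4.6); the neqc alternative used limma 3.58.1 in R 4.3.3. Folds of probes not detected on the dim array are lower bounds, set against the lowest detected level there or the probe itself, whichever was higher. With 1 array in each group the number of arrays limits the precision, so calls are 2-fold differences and no p-value is given. The counting was tested on simulated data, with rises well above 2-fold planted in probes at least 64 above the median. No rise was planted in dimmer probes, which are most of the members, or near the 2-fold threshold. Probes were named from the platform annotation (34885 with 1 gene, 18 with several, 10378 with none), and 34807 matched a current RefSeq entry. Promoters come from RefSeq, GRCm38.p6.

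The members, the 11 lists and the naming rule were chosen with earlier results of these data known. The rule names the 15, 10 and 10 members with the largest STKO, WT and TKO differences, list members, and every member 2-fold lower in WT or TKO. The last were too many (79), so named are most of those lower in both and the brighter ones, chosen after their values were seen, as were Cd83, Tlr2, Gpr84 and Ccrl2. Alternatives were the floor, background, normalization, value table, detection and size thresholds.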

Additional observations from a re-analysis of the deposited data

Results flagged for a closer look

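A response in opposite directions under the same treatment drew attention to 12 members, each at least 2-fold higher with ISD in STKO and at least 2-fold lower in both WT and TKO, from mock arrays of WT and TKO that detected them. The 12 are 2.78% of the 432 members, while 5.15% of all probes detected on STKO ISD were 2-fold lower in both. Most of the 12 were not detected on WT ISD, so the size of their fall there is not measured. The difference between genotypes was not tested, since each group is 1 array. The brightest, the unnamed probe ILMN_2735350, read 1038 and 197 in WT, 782 and 321 in TKO, and 890.3 and 3452 in STKO. Its difference was -3.10 in WT, -1.52 in TKO and 2.06 in STKO, so its STKO ISD array was the highest of the 6 and its WT ISD array the lowest. Flrt3 differed by -1.22 in WT and 1.24 in STKO, and Jag1 by -1.37 in WT and 1.23 in STKO.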

How the results depend on the processing

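The 432 members became 190 with a floor of 32, 38 without background subtraction, 66 with neqc, 227 after quantile normalization, 27 with the authors' series value table and 1626 at 1.5-fold; 561 passed with a floor of 8 and all 432 at a detection fraction of 0.95. All members under the floor of 32, no subtraction, quantile normalization and the value table, and 64 of the 66 under neqc, were among the 432, and 27 probes were members under all 6 of these scalings, Ifnb1, Cxcl10, Rsad2, Cxcl2, Irf1 and Mdm2 among them. Without subtraction, with neqc and with the value table, WT-up members numbered 31, 36 and 22 (348 at 1.5-fold), TKO-up members 15, 25 and 13 (247 at 1.5-fold), members in the top 100 of WT 18, 17 and 13, and members smaller in STKO than in WT 29, 35 and 21. The median WT difference of the members, -0.09, turned to 3.07, 1.33 and 3.02 under these settings and to 0.115 after quantile normalization. Without subtraction, with neqc and with the value table the median TKO difference was 0.887, 0.813 and 0.97, and the median of TKO mock minus WT mock turned from -0.06 to 1.72, 0.332 and 2.29. The median of STKO mock minus TKO mock was -2.06 without subtraction and -2.66 with the value table. Each setting chose its members anew, and those that keep the background leave out dim probes by construction. The share of WT-up members was 22.2% in the main setting, 34.7% with a floor of 32, 81.6% without subtraction, 54.5% with neqc, 29.5% after quantile normalization and 81.5% with the value table. The matching share over all detected probes was taken only in the main setting. No paired analysis was possible because each group holds 1 array. Signal over background limits the 242 members under 64.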
